A study of Homo sapiens with 24 samples.

Results

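Gene expression was compared between D538G and wildtype (WT) ER cells of the T-47D line, both transfected with a negative control microRNA mimic and both without added hormone. T-47D is a luminal breast cancer line whose growth depends on the estrogen receptor (ER), the product of ESR1. The comparison took every library that the labels describe as D538G or WT with the mimic negative control, which gave 4 of the 24 RNA-seq libraries of the series: D538G clones A5 and C2 against WT clones D1 and D4, with 2 clones per genotype. The D538G clones carry the mutant allele heterozygously at the native ESR1 locus, and the study treated clones of 1 genotype as its replicates. All 4 clones were kept in hormone-deprived medium for 4 days, plated for 24 h, transfected with 10 nM of the control mimic and collected 24 h later. Y537S cells, which carry the neighbouring ER mutation, and D538G and WT cells transfected with a miR-301b-3p or a miR-181c-5p mimic were used to place the values. Each clone is a line of its own, so that differences fixed in a clone by chance and differences that follow from the mutation cannot be told apart with these samples.

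ER is a nuclear receptor. Without ligand it is held by heat shock proteins, and when estradiol (E2) binds, the ligand-binding domain closes over the hormone and forms a surface for coactivators. The D538G and Y537S substitutions sit at the start of the last helix of that domain and favour the closed, active shape when no hormone is present. They are found mainly in metastatic breast tumours after long treatment that lowers estrogen. In ER-positive breast cells, active ER is known to raise progesterone receptor, growth regulators and cell cycle genes and to lower a set of genes that includes several growth factor receptors.

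The 4 libraries held between 33451179 and 36436429 counts assigned to genes, and between 17482 and 18018 of the 26364 genes in the tables had at least 1 count. Normalization factors lay between 0.993 and 1.006, and the 10 most abundant genes took between 4.74% and 5.78% of a library. The counts of 2 clones of a genotype differed well beyond sampling noise, with a chi-square per degree of freedom of 14.5 for D538G and 11.2 for WT, so no library was a copy of another. Levels are given as CPM, the count of a gene relative to the total of its library, scaled over all 24 libraries, which compare 1 gene between libraries and not genes of different length with each other. The luminal markers of the line were high, with a summed level of 9652 and 9519 CPM in D538G clones A5 and C2 and of 10216 and 10825 CPM in WT clones D1 and D4. Of these 10 markers, 2 were up-regulated and 4 down-regulated. Basal markers summed to 6.34 and 7.40 CPM in D538G and 13.8 and 13.3 CPM in WT, with 1 of 4 tested lower, TP63, a basal transcription factor. Fibroblast markers summed to between 49.2 and 64.6 CPM in the 4 libraries, with 1 of 4 tested higher, COL3A1. Immune markers summed to between 4.21 and 5.93 CPM, with 0 of 2 tested genes called, and endothelial markers to at most 0.165 CPM with none abundant enough to test. The part of other cells in the results below was not tested beyond these sums.

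A large part of the transcriptome differed between D538G and WT cells. Of the 14942 genes abundant enough to test, 5818 (38.9%) differed at an adjusted p under 0.05 (edgeR quasi-likelihood F test with Benjamini-Hochberg adjustment), 3050 (20.4%) higher and 2768 (18.5%) lower in D538G cells. Most differences were small, with a median log2 fold change of 0.57 among genes that rose and -0.63 among genes that fell. At least a 2-fold change was reached by 701 genes (4.69%) upward and 803 (5.37%) downward, and at least a 4-fold change by 165 and 250. In 5817 of the 5818 called genes both D538G libraries lay above or below both WT libraries. The exception was KIFC1, a mitotic kinesin, whose 21.5 and 0.985 CPM in A5 and C2 overlapped the 1.44 and 0.119 CPM in D1 and D4. With so few libraries per genotype, a call leaves little room for overlap. Lack of overlap, here and below, therefore adds little to a call, and how often it occurs among all genes tested was not counted. Since so large a share of genes passed the test, a gene list is read below against these shares and not against 0.

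The genotype difference was seen again in other libraries of the same clones. In cells given the miR-301b-3p mimic 4790 of 15254 genes (31.4%) differed between D538G and WT, 2459 (16.1%) higher and 2331 (15.3%) lower. With the miR-181c-5p mimic these counts were 5239 of 15027 (34.9%), 2637 (17.5%) and 2602 (17.3%). Of the 5818 called genes, 4024 (69.2%) were called in the same direction with miR-301b-3p and 4344 (74.7%) with miR-181c-5p. Those shared genes made up 84.0% and 82.9% of the calls in the libraries with the mimics. A call in the opposite direction was made for 1 gene with each mimic, SDAD1, a gene for a nuclear protein, and THOC3, a subunit of an mRNA export complex. These libraries share the clones, so they bear on the spread between cultures and not on the spread between clones.

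**Figure D1:**
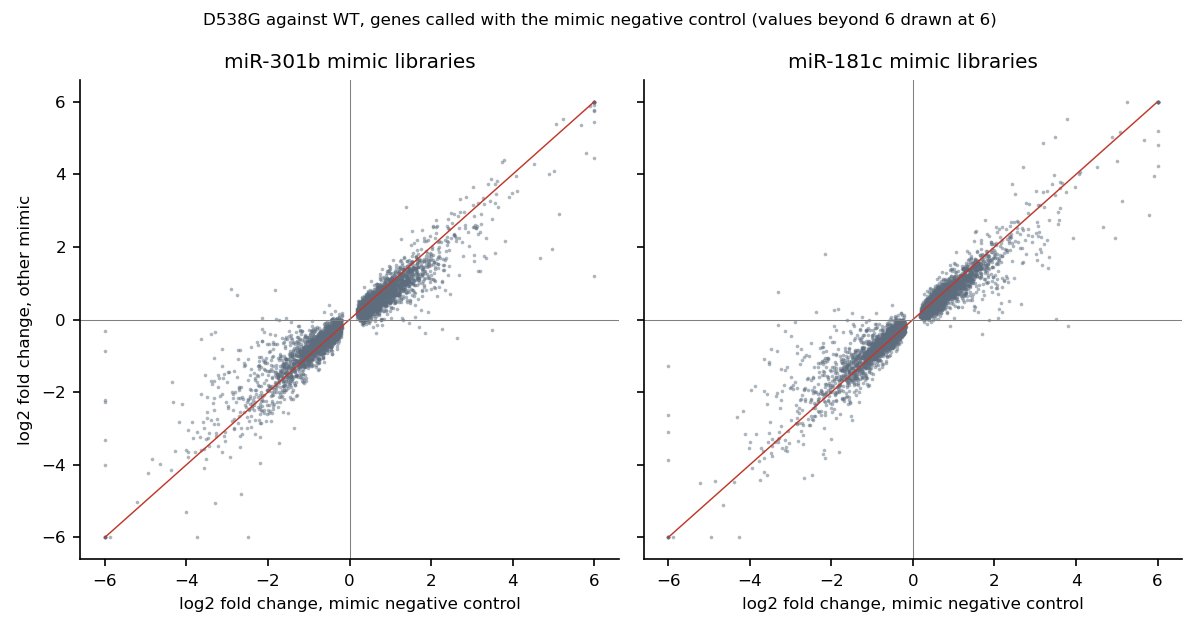
Log2 fold change of D538G over WT for each gene called in control mimic libraries (x axis) against the same in miR-301b-3p mimic (left) and miR-181c-5p mimic libraries (right) of the same clones (y axis). Each point is 1 gene, values are limited to 6 in either direction, and the red line marks equal values; 5726 of 5789 and 5753 of 5786 genes have the same sign on both axes.

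Clones of 1 genotype also differed. With the treatment as a term, D538G clones A5 and C2 differed in 1985 of 15126 genes (13.1%) over their 6 libraries, and WT clones D4 and D1 in 318 of 15344 (2.07%). Of the genes called between D538G and WT, 1190 (20.5%) also differed between the D538G clones and 185 (3.18%) between the WT clones.

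ESR1 itself was up-regulated in D538G cells. The gene, at chr6:151977826-152450754 of hg19, stood at 242 and 239.7 CPM in clones A5 and C2 against 117 and 115 CPM in WT clones D1 and D4, and the Y537S clones had 257 and 168 CPM. The D538G libraries agreed closely and lay well above both WT libraries, 1.04 ± 0.07 higher on the log2 scale (± SE, adjusted p = 1.2e-05). These counts do not separate the mutant from the WT allele. PGR, the progesterone receptor and the classic ER target, went the other way from ESR1, from 998 and 1018 CPM in WT to 815 and 871 CPM in D538G cells (log2 fold change -0.27 ± 0.06, adjusted p = 0.0083), a call that was lost with all 24 libraries in 1 edgeR fit (adjusted p = 0.094). In Y537S cells it stood at 1283 and 1368 CPM, and the direct test placed D538G below Y537S (log2 fold change -0.68, adjusted p = 0.0071).

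Genes that estrogen is known to induce were more often higher than lower without ligand in D538G cells, and many did not pass the test. Of 65 listed genes 61 were tested, and 29 were up-regulated, 7 down-regulated and 25 not called, with a median log2 fold change of 0.35 against -0.00078 over all genes tested. In the libraries with the miR-301b-3p and miR-181c-5p mimics 25 and 21 of the list were higher and 9 and 10 lower. Receptors, channels and transporters gave the largest share, with 10 of 16 higher and 1 lower. The transcription factors and coregulators of the list had 4 of 12 higher and 1 lower, and its secreted proteins 6 of 12 higher and 2 lower. Of the 61 genes 23 also differed between the D538G clones and 12 between the WT clones, and 7 of the 12 secreted proteins differed between the WT clones.

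Among the induced genes with the smallest p, SUSD3, a regulator of cell adhesion, rose from 0.922 and 0.806 CPM in WT to 7.22 and 11.3 CPM in D538G cells (log2 fold change 3.40 ± 0.30). CELSR2, an atypical cadherin, had 115 and 119 CPM in D538G and 57.4 and 57.6 CPM in WT cells, a 2.01-fold difference with clones of a genotype nearly equal. CA12, a membrane carbonic anhydrase, stood at 905 and 1009 CPM against 502 and 422 CPM, log2 fold change 1.04. It lies on chromosome 15, where genes in general were higher, with a median of 0.54 (below). The rises of SUSD3, CELSR2 and CA12 left no overlap between the genotypes. FKBP4, a cochaperone of steroid receptors, went from 469 and 522 CPM to 886 and 915 CPM, and its level in Y537S cells was 1011 and 959 CPM. OLFM1, a secreted olfactomedin, rose from 14.1 and 19.4 to 61.3 and 60 CPM in D538G cells but reached 145 and 161 CPM in Y537S cells, and D538G and Y537S cells differed (log2 fold change -1.36, adjusted p = 0.0029). RAB31, a small GTPase of vesicle traffic, had the reverse order: 58.9 and 53.3 CPM in D538G, 18 and 19.8 CPM in WT and 20.2 and 14.4 CPM in Y537S cells, with D538G above Y537S by 1.68 on the log2 scale (adjusted p = 0.004).

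Several textbook targets were examined after their values were seen. GREB1, an ER coregulator, stood at 248 and 262 CPM in D538G and 128 and 169 CPM in WT cells, and MYC, a driver of growth, at 25.8 and 26.6 and 9.03 and 11.1 CPM. Both rose, by 0.77 and 1.36 on the log2 scale. The secreted factors CXCL12, a chemokine, and STC2, a stanniocalcin, rose by 2.38 and 1.87. TFF1, the trefoil factor often used as the marker of ER activity, was low in these hormone-deprived cells. It had 0.631 and 0.716 CPM in D538G and 0 and 0.149 CPM in WT cells. CCND1, cyclin D1, was down-regulated by a small amount, from 242 and 246 CPM to 207 and 213 CPM (log2 fold change -0.22 ± 0.06). SERPINA1, the alpha-1 antitrypsin gene on chromosome 14, fell from 95 and 157 CPM to 31.3 and 44.2 CPM.

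Genes that estrogen is known to repress fell together. Of 8 listed genes 7 were lower, 0 higher and 1, EPAS1, not called, with a median log2 fold change of -0.88, and the count of 7 was found again with each of the mimics. TXNIP, an inhibitor of thioredoxin and of glucose uptake, had 73.1 and 75 CPM in D538G against 228 and 217 CPM in WT cells, a fall by 3.03-fold (adjusted p = 2.6e-06). CCNG2, a cyclin that restrains the cell cycle, went from 173 and 174 CPM to 98.8 and 87.8 CPM. IL1R1, the interleukin-1 receptor, had 136 and 104 CPM in WT and 62.6 and 48.5 CPM in D538G cells, below the 86.4 and 88.5 CPM of Y537S cells (log2 fold change -0.68, adjusted p = 0.03). The adaptor gene BLNK fell by 0.64 on the log2 scale. BMP7, a bone morphogenetic protein, was low throughout, with 10 counts in the 2 D538G libraries and 79 in the 2 WT libraries.

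**Figure D2:**
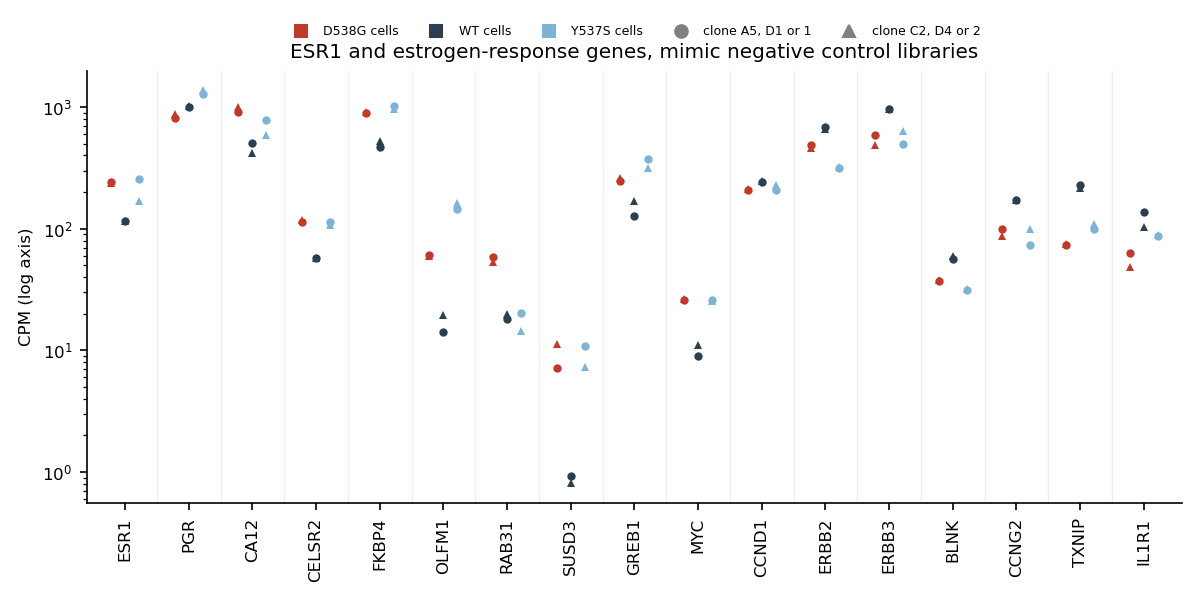
Level of 17 genes of the estrogen response (CPM, log axis) in the control mimic libraries of D538G (clones A5, C2), WT (D1, D4) and Y537S cells (clones 1, 2). Each point is 1 library, circles being A5, D1 and clone 1 and triangles C2, D4 and clone 2; ESR1, CA12, CELSR2, FKBP4, OLFM1, RAB31 and SUSD3 lie higher in D538G than in WT cells, PGR and the repressed genes TXNIP, IL1R1, CCNG2, ERBB2, ERBB3 and BLNK lower.

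The full estrogen response element, the palindrome GGTCA, any 3 bases, TGACC, was looked for on both strands of RefSeq promoters (GRCh38.p14), 250 bases before to 50 after each start. A promoter was matched for 11433 of the 14942 genes tested (76.5%), too few for a check of the whole set, so shares are given as a description. Of 16484 promoters 2 held the palindrome, and both are shown, with the arms in capitals; promoters outside those matched were not analysed here:
SLC35B2, chr6:44257749-44257777, minus strand: atggcaatGGTCAccaTGACCtctgggac
ZNF669, chr1:247104510-247104538, minus strand: ccaaaagcGGTCAttcTGACCtcatccag
SLC35B2, which encodes a sulfate donor transporter of the Golgi, was up-regulated by 0.42 on the log2 scale, and ZNF669, a zinc finger gene, was not called. The single arm GGTCA was in 33.1% of the promoters of genes that rose, 34.2% of those of genes that fell and 34.5% of all promoters. It was in 33.8% of the promoters of the estrogen-induced list, 40.5% of those of S phase genes and 38.2% of those of genes of G2 and mitosis.

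Cell cycle genes rose together in D538G cells. Of the 42 tested genes of S phase, in which DNA is copied, 40 were up-regulated, 1 down-regulated and 1 not called, with a median log2 fold change of 1.03. Of the 54 genes of G2 and mitosis 51 were up-regulated, 2 down-regulated and 1 not called, with a median of 1.38. With the miR-301b-3p and miR-181c-5p mimics 35 and 37 of the S phase genes and 48 and 51 of the G2 and mitosis genes were higher in D538G cells. Summed over the list, S phase genes had 4132 and 4538 CPM in A5 and C2, 2328 and 2378 CPM in D1 and D4, and 5173 and 4838 CPM in the Y537S clones. The G2 and mitosis genes summed to 10061 and 11928 CPM in D538G, 5308 and 5439 CPM in WT and 14660 and 12914 CPM in Y537S cells. Both D538G clones lay above both WT clones and below both Y537S clones. In bulk RNA a larger share of dividing cells and more of these transcripts per cell cannot be told apart. In the direct test 8 of the G2 and mitosis genes were lower in D538G than in Y537S cells and 0 higher, and 3 and 0 of the S phase genes. Over all genes in that test 3.93% were lower and 2.26% higher. Clone C2 was above A5 in this group, and 39 of the 54 genes of G2 and mitosis and 15 of the 42 of S phase differed between these clones.

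MKI67, the proliferation marker Ki-67, had 606 and 754 CPM in clones A5 and C2 and 189.8 and 204 CPM in D1 and D4, a 3.42-fold rise (log2 fold change 1.78 ± 0.10, adjusted p = 7e-06). CCNB2, a mitotic cyclin, went from 28.1 and 32 to 103 and 125 CPM, and NUSAP1, a spindle protein, from 66.6 and 73 to 238 and 282 CPM. KIF23, a kinesin needed to separate daughter cells, had 134 and 163 CPM in D538G against 44.3 and 45.4 CPM in WT cells. CCNB2, NUSAP1 and KIF23 lie on chromosome 15, where genes in general were higher (below), while MKI67, UBE2C and SMC4 do not. UBE2C, which tags mitotic proteins for destruction, stood at 125 and 147 CPM against 44.9 and 44.5 CPM. SMC4, a condensin subunit, stood at 576 and 663 CPM against 234 and 223 CPM, log2 fold change 1.43 ± 0.08. CBX5, a heterochromatin protein on chromosome 12, and CTCF, an insulator protein, were the members that fell, by 0.25 and 0.44 on the log2 scale.

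In S phase, RRM2, a subunit of ribonucleotide reductase, rose from 115 and 125 CPM to 307 and 346 CPM. MCM5 and MCM2, parts of the replicative helicase, went from 30.5 and 32.7 and from 72.2 and 81.8 CPM in WT to 73.3 and 79 and to 169 and 167 CPM in D538G cells. PCNA, the sliding clamp of DNA polymerase, was about 2-fold higher, with 186 and 199 CPM in D538G and 94.8 and 98 CPM in WT cells (log2 fold change 0.98 ± 0.07). The genotypes did not overlap in any of these. ATAD2, a chromatin ATPase, rose by 1.04, and WDR76, a DNA damage factor on chromosome 15, by 1.66. UBR7, on chromosome 14, was the S phase gene that fell, from 150.3 and 151 CPM to 128 and 125 CPM.

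Promoters of cell cycle genes are known for a few short motifs, which were counted here. CCAAT was in 69.0% of the 42 matched S phase promoters and 67.3% of the 55 promoters of G2 and mitosis genes, against 34.9% of all promoters. TTTCCCGC or TTTGGCGC, forms of the E2F site, was in 33.3% of the S phase and 3.64% of the G2 and mitosis promoters against 3.25% of all, and TTTGAA, the core of the cell cycle homology region, in 9.52% and 63.6% against 10.5%. Among all genes that rose the shares were 37.4% for CCAAT, 4.79% for the E2F forms and 11.7% for TTTGAA, and among genes that fell 34.7%, 2.15% and 10.5%. The stretches below show the TTTGAA match, on either strand, in genes of the list with the smallest p and the E2F match in PCNA. Among the cell cycle genes named above that rose, UBE2C, RRM2, MCM5, MCM2, ATAD2 and WDR76 have no stretch shown. Each stretch is printed on the strand of its gene with the motif in capitals (GRCh38.p14):
CCNB2, chr15:59105106-59105133, plus strand: gcgacgcggtaTTTGAAtcctggaacaa
NUSAP1, chr15:41332883-41332910, plus strand: ggcgccagggaTTTGAAccgcgctgacg
KIF23, chr15:69414283-69414310, plus strand: tgattggcccgTTTGAAatgcgccaggc
MKI67, chr10:128126436-128126463, minus strand: cttcgttttcgTTTGAAttgggcgggcg
SMC4, chr3:160399564-160399591, plus strand: ccgcactttttTTCAAAttagtggatcc
PCNA, chr20:5126663-5126692, minus strand: cagcgtcagggGCGGGAAAaggcgtgcgtt
The match starts 29 bases before the start site in both CCNB2 and MKI67, 55 before it in KIF23, 75 before it in SMC4 and 13 after it in NUSAP1. MKI67 holds another match 47 bases before its start, and the PCNA match starts 59 bases before. The matches are letters in a window, and binding was not measured here.

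The regulators of G1, the phase in which a cell commits to division, were mixed. Of 22 tested 9 rose and 6 fell, with a median log2 fold change of 0.18. The cyclins had 4 of 5 higher, among them CCNA2, cyclin A2, with 89.9 and 123 CPM against 37.2 and 37.7 CPM, and CCNE2, cyclin E2, with 77.5 and 85.7 CPM against 45.3 and 43.7 CPM. The activating factors E2F1 and E2F2 rose by 0.88 and 1.04, while E2F3 and E2F4 fell by 0.38 and 0.51. The inhibitors did not move together. CDKN2B, the CDK4 and CDK6 inhibitor p15 on chromosome 9, fell from 95.2 and 103 CPM in WT to 29.4 and 31.3 CPM in D538G cells (log2 fold change -1.72 ± 0.09). CDKN1A, the inhibitor p21, fell by 0.53, and CDKN2C, the inhibitor p18, rose by 1.35. CDK6 fell from 17.3 and 18.4 CPM to 8.87 and 9.61 CPM, and stood at 21.6 and 15.3 CPM in Y537S cells.

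Replication-dependent histones went against the S phase genes. Of 9 tested 7 were lower and 0 higher, with a median log2 fold change of -0.80. HIST1H1C, a linker histone, fell from 174 and 196 CPM to 80.9 and 65.3 CPM, and HIST2H2BE, a core histone, from 63.6 and 57.1 to 31.5 and 32.3 CPM. HIST1H4H fell by 1.02, HIST1H2BC by 0.83 and HIST1H2AC by 0.80 on the log2 scale. The main histone transcripts carry no poly-A tail and these libraries were made from poly-A RNA, so the values concern the part of histone RNA that has one.

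The nuclear receptors, ESR1 and PGR included, moved in both directions. Of 34 tested of 38 listed, 7 rose, 8 fell and 19 were not called, and the median log2 fold change was -0.05. The share called was 44.1%, beside 38.9% of all genes tested. VDR, the vitamin D receptor on chromosome 12, fell from 266 and 278 CPM to 118 and 109 CPM (log2 fold change -1.27 ± 0.07, adjusted p = 6.3e-06). NR5A2, an orphan receptor, fell from 15.9 and 12.9 CPM to 4.8 and 4.06 CPM. The genotypes did not overlap in either gene. The retinoic acid receptor RARG and the orphan receptors NR2C1 and NR4A1, all on chromosome 12, fell by 0.58, 0.56 and 0.50.

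RORB, a retinoid-related orphan receptor on chromosome 9, was close to absent in WT cells, with 4 counts in the 2 WT libraries and 652 in the 2 D538G libraries. Its level was 9.97 and 8.62 CPM in D538G, 0 and 0.119 CPM in WT and 0.568 and 0.212 CPM in Y537S cells. NR2F2, the factor COUP-TFII on chromosome 15, rose from 124 and 129 CPM to 213 and 192 CPM. ESRRA, an estrogen-related receptor, rose by 0.57, NR1D2, a clock repressor, by 0.40, its relative NR1D1 by 0.81 and RARA, another retinoic acid receptor, by 0.29. The abundant receptors that were not called had log2 fold changes of -0.11 ± 0.10 for NR3C1, the glucocorticoid receptor, 0.02 ± 0.07 for RXRA, the shared partner of many receptors, -0.04 ± 0.08 for NR2F6, -0.05 ± 0.10 for NR1H2, -0.05 ± 0.09 for PPARD, 0.34 ± 0.15 for PPARA, -0.19 ± 0.13 for THRA, -0.24 ± 0.10 for THRB, 0.17 ± 0.07 for NR2C2, -0.35 ± 0.20 for NR2F1 and 0.03 ± 0.20 for NR6A1.

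Luminal and pioneer factors were more often lower. Of 20 tested 2 rose and 8 fell, with a median log2 fold change of -0.25. EHF, an epithelial ETS factor, fell from 488 and 475 CPM to 194 and 189.5 CPM, and it was also lower than in Y537S cells, which had 265 and 288 CPM (log2 fold change -0.55, adjusted p = 0.018). TRPS1, a GATA-type repressor, fell from 2645 and 2606 CPM to 1748 and 1573 CPM, and ELF5, a factor of milk-forming cells, from 334 and 319.6 CPM to 229.8 and 181.1 CPM. SPDEF and TBX3 fell by 0.44 and 0.54. FOXA1, the pioneer factor of ER, lies on chromosome 14 and went from 505 and 533 CPM to 450.3 and 423 CPM (log2 fold change -0.26 ± 0.07, adjusted p = 0.011). GATA3, its partner at ER sites, was not called, at 1559 and 1465 CPM in D538G and 1515 and 1551 CPM in WT cells. MYB, a factor that ER is known to release from a block in elongation, rose from 15.7 and 18.4 CPM to 36.5 and 31.4 CPM.

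Coregulators of ER gave 4 higher and 8 lower of 23 tested, with a median log2 fold change of -0.05. The coactivators NCOA3 and NCOA2 fell from 348 and 338 CPM and from 153 and 134 CPM in WT to 243 and 226 CPM and to 102 and 90.6 CPM in D538G cells. The H3K4 methyltransferases KMT2D, on chromosome 12, and KMT2C fell by 0.67 and 0.44. CITED2, which binds the coactivators CBP and p300, fell from 282 and 319.8 CPM to 206 and 192 CPM. LCOR, a ligand-dependent corepressor, fell by 0.60 and was lower than in Y537S cells as well (log2 fold change -0.48). NCOA1, EP300 and CREBBP were not called, with log2 fold changes of 0.09, -0.16 and -0.04. The rises of MED1, PELP1, SAFB and PHB2 were between 0.27 and 0.33, and leaving out WT clone D1 left 0 of these 4 called, WT clone D4 2 and D538G clone C2 1.

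Heat shock proteins, which hold unliganded steroid receptors, were higher as a group. Of 20 tested 13 rose and 1, HSPB1, fell, with a median log2 fold change of 0.38. HSPA8, the constitutive HSP70, rose from 2433 and 2482 CPM to 3291 and 3437 CPM, STIP1, which links HSP70 to HSP90, from 365 and 397 CPM to 552 and 565 CPM, and DNAJB1, an HSP40, from 105 and 105 CPM to 161 and 156 CPM. None of these overlapped between genotypes. HSPD1, a mitochondrial chaperonin, and HSPA4L, an HSP110 relative, rose by 0.64 and 0.80. HSPA1A and HSPA1B were also among the rises, but they are near-identical copies that share reads, so their separate values are uncertain. With the miR-301b-3p and miR-181c-5p mimics 9 and 8 of the list were higher.

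Growth factor receptors moved in both directions. Of 29 genes tested, out of 40 listed with adaptors, ligands and binding proteins, 6 rose and 10 fell, with a median log2 fold change of -0.15. IGF1R, the receptor of insulin-like growth factors on chromosome 15, had 214 and 241 CPM in D538G and 77.9 and 77.9 CPM in WT cells, a 2.89-fold rise (log2 fold change 1.53 ± 0.08, adjusted p = 5.3e-06), which is larger than the median of 0.54 of its chromosome. IRS1, the docking protein of that receptor, rose by 0.73. The ERBB family split: EGFR rose from 12.2 and 16.5 CPM to 25.1 and 25.9 CPM, while ERBB2, ERBB3 and ERBB4 fell.

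ERBB2, the receptor HER2, had 491 and 458 CPM in D538G, 692 and 665 CPM in WT and 315 and 321 CPM in Y537S cells, so D538G cells lay between the others (log2 fold change -0.53 ± 0.06 against WT and 0.55 against Y537S, adjusted p = 0.013). ERBB3, its partner on chromosome 12, fell from 961 and 966 CPM to 592 and 491 CPM, and ERBB4 from 87.4 and 69.2 CPM to 32 and 30.9 CPM. GRB7, an adaptor next to ERBB2, fell by 0.43 and EGF, a ligand of EGFR, by 1.04. FGFR4 fell by 0.44 and FGFR3 rose by 0.49. FGFR3 reached 47.3 and 40.3 CPM in Y537S cells against 27.5 and 29.6 CPM in D538G and 20.4 and 19.7 CPM in WT cells. EPHB4, an ephrin receptor, rose by 0.59, IGFBP4 rose by 0.35 and IGFBP5 fell by 0.52. VEGFA, a hypoxia-responsive growth factor, fell from 79.2 and 81.4 CPM to 49 and 36.6 CPM. The abundant members that were not called were FGFR1 (-0.25 ± 0.13), FGFR2 (0.05 ± 0.11), INSR (-0.24 ± 0.15), SHC1 (-0.12 ± 0.07) and IGFBP2 (-0.03 ± 0.08), as log2 fold changes with their SE.

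The TGF-beta and BMP pathway had 2 of 28 higher and 6 lower (median log2 fold change -0.14), and 0 of its 11 SMADs and targets called. Its share called was 28.6%, beside 38.9% of all genes tested. TGFB3, a ligand on chromosome 14, fell from 352 and 385 CPM to 231 and 213 CPM, ACVR1B, an activin receptor on chromosome 12, from 119 and 104 CPM to 71.4 and 61.6 CPM, and BMPR1B by 1.60. The rises numbered 0 without D538G clone C2 and 1 without either WT clone. BMPR2 fell by 0.33 and TGFBR1, a receptor kinase on chromosome 9, rose by 0.56. In the Wnt and Notch pathways 6 of 31 rose and 6 fell, with a median of 0.04. The share called was 38.7%, about that of all genes tested (38.9%). WNT5A, a noncanonical Wnt ligand, fell from 7.89 and 7.52 CPM in WT to 0.439 and 0.865 CPM in D538G cells (log2 fold change -3.58 ± 0.32, adjusted p = 5.4e-05) and had 0.284 and 0.306 CPM in Y537S cells. WNT11 fell by 2.30 from a low level. NOTCH1 and its ligand gene DLL1 rose by 0.68 and 1.44, the Notch target HES4 by 0.57 and TCF7, a Wnt effector, by 1.46. Without WT clone D1 1 of the 6 falls of this list was called. AXIN2, the standard Wnt target, was not called, with a log2 fold change of 1.14 ± 0.70.

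Adhesion genes moved in both directions, 13 of 50 higher and 11 lower, with a median log2 fold change of -0.09. The share called was 48%, beside 38.9% of all genes tested. CDH1, E-cadherin, fell to 940.3 and 865 CPM in A5 and C2 from 1806 and 1739.6 CPM in D1 and D4 (log2 fold change -0.99 ± 0.06, adjusted p = 1.2e-05). CGN, cingulin of the tight junction, fell from 328 and 349 CPM to 203 and 186 CPM, and COL4A5, a basement membrane collagen, from 138 and 156 CPM to 89.3 and 74.9 CPM. GJA1, connexin 43, rose to 30 and 23.5 CPM from 5.64 and 4.03 CPM and had 3.25 and 7.23 CPM in Y537S cells. It was higher in D538G than in Y537S cells too (log2 fold change 2.32, adjusted p = 0.014). The integrin ITGB4 and the laminin LAMA3, partners in hemidesmosomes, rose by 0.63 and 0.77, and CLDN1, claudin 1, rose by 0.54 from a level of 2042 and 2216 CPM to 3302 and 2959 CPM.

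Of 12 keratins tested 2 rose and 5 fell, with a median of -0.20. KRT80 fell from 292 and 322 CPM to 161 and 159 CPM and KRT23 rose from 124 and 149.9 CPM to 263 and 248 CPM, while the luminal keratins moved little, KRT8 by 0.18 and KRT19 by -0.21. KRT15 fell by 0.65. The count of rises was 4 without D538G clone A5 and 1 without C2 or D1, and that of falls 3 without D4. KRT81 and KRT86, which fell by 3.23 and 2.25, are close copies whose reads may be split between them. Of 7 factors of epithelial and mesenchymal state 2 rose and 1 fell (median 0.13): TWIST1, a mesenchymal factor at 6.07 and 5.61 CPM against 3.39 and 2.12 CPM, and CD44 rose, and ESRP2, an epithelial splicing factor, fell from 287 and 307 CPM to 167 and 157 CPM. Without WT clone D4 1 of the rises was called. SNAI1, another mesenchymal factor, was not called, with a log2 fold change of 1.61 ± 0.73.

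Interferon-stimulated genes were more often lower than higher, with 14 of 42 down-regulated, 3 up-regulated and 25 not called and a median log2 fold change of -0.33. Over all genes tested 38.9% were called, 20.4% higher and 18.5% lower, beside 40.5% called in this list. The summed level of the list was 1208 and 1227 CPM in D538G and 1204 and 1339.7 CPM in WT cells, so the genotypes overlapped in the sum. With the miR-301b-3p and miR-181c-5p mimics 10 and 11 were lower. OAS2, which makes the activator of RNase L, had 2.99 and 4.15 CPM in D538G against 11.1 and 18.9 CPM in WT cells, and IFI6, an interferon-induced mitochondrial protein, 9.31 and 8.59 against 16.4 and 19.4 CPM. In Y537S cells OAS2 stood at 12.4 and 20.7 CPM, and 9 genes of the list were lower in D538G than in Y537S cells and 0 higher. Among all genes of that comparison 3.93% were lower and 2.26% higher. STAT2, the interferon signal factor, fell by 0.64, PARP14 by 0.74 and UBE2L6 by 0.64. OAS3, a neighbour of OAS2 on chromosome 12, went against the list and rose from 40.8 and 53.9 CPM to 92.8 and 110.5 CPM. Without WT clone D4 9 of the list were lower, and without the genes on chromosomes 9, 12, 14 and 15 7 of 32 were lower.

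Metabolic and stress genes showed single large changes rather than movement of a whole list. Glycolysis and hypoxia genes had 5 of 25 higher and 8 lower (median -0.12). NDRG1, a growth regulator that hypoxia induces, fell from 187 and 207 CPM to 29.8 and 20.2 CPM, a fall by 7.94-fold. HK2, a hexokinase, fell from 64.4 and 76.9 CPM to 31 and 30.1 CPM, LDHA, lactate dehydrogenase, by 0.54, SLC2A1, a glucose transporter, by 0.56 and ALDOC, an aldolase, by 0.78. Without WT clone D1 2 of this list rose. Genes of ATF4 and the unfolded protein response had 3 of 20 higher and 6 lower (median -0.03), 45% called beside 38.9% of all genes tested. Away from chromosomes 9, 12, 14 and 15, 3 of 15 were higher and 2 lower. In that list PSAT1 and PHGDH, successive enzymes of serine synthesis, went in opposite directions.

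PSAT1, on chromosome 9, was nearly lost in D538G cells, at 0.0549 and 0.477 CPM in A5 and C2 against 26.5 and 30.4 CPM in D1 and D4 (log2 fold change -6.78 ± 0.39, adjusted p = 6.9e-06), and the Y537S clones had 1.58 and 61.4 CPM. PHGDH rose from 61.1 and 67 CPM to 108 and 104 CPM. Each genotype kept to itself in both genes, except that the Y537S clones stood far apart in PSAT1. DDIT4, a brake on mTOR signalling, fell from 86.4 and 93.1 CPM to 30 and 25.3 CPM. DDIT3, the stress factor CHOP on chromosome 12, fell from 36.2 and 37.1 CPM to 18.6 and 16.7 CPM. HSPA5, the chaperone BiP, fell by 0.38 and SLC3A2, an amino acid transporter subunit, rose by 0.48.

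Cholesterol and fatty acid synthesis had 5 of 29 higher and 7 lower (median -0.04), 41.4% called beside 38.9% of all genes tested. The desaturases FADS2 and FADS1 fell by 1.30 and 0.63, and FADS1 stood at 32.9 and 38.7 CPM in D538G, 52.6 and 56.9 CPM in WT and 86.5 and 83.8 CPM in Y537S cells. EBP, PMVK and LSS, enzymes of cholesterol synthesis, rose by 0.70, 0.48 and 0.42. Without WT clone D1 3 genes of this list rose and without D4 4 fell. Of 14 genes of the BCL2 family 2 rose and 3 fell (median 0.01), 35.7% called beside 38.9% of all genes tested. BCL2L2, a survival member on chromosome 14, fell by 1.02 and the death members BIK and BMF fell by 1.04 and 0.46, while BAK1 and BAD rose by 0.42 and 0.36. Without D538G clone C2 1 rose and 1 fell, and without WT clone D1 0 rose and 1 fell. BCL2 itself, an ER target, was not called, with a log2 fold change of 0.71 ± 0.38.

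**Figure D3:**
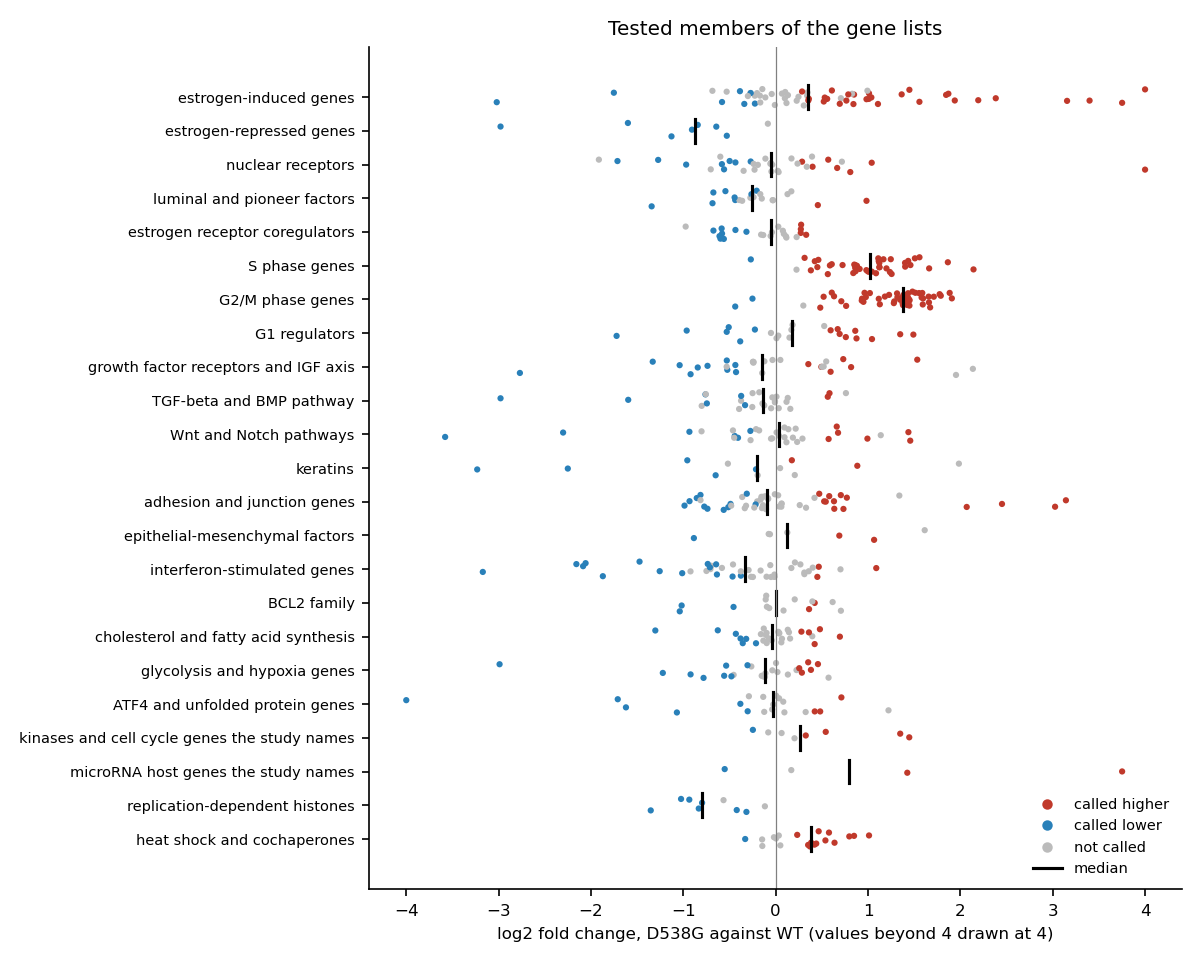
Log2 fold change of D538G over WT (x axis, limited to 4 in either direction) for each tested member of the gene lists (rows). Red points are genes called higher, blue called lower and grey not called, and the black bar is the median of the list, which lies at 1.03 for S phase and 1.38 for G2 and mitosis genes and at -0.88 for estrogen-repressed genes.

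A list of kinases and cell cycle genes and one of microRNA host genes held mostly genes that the study names for these cells, with relatives of PRKD3 and PIK3CB added, so their values are not independent evidence. Of 8 tested kinases and cell cycle genes 4 rose and 1 fell, with a median log2 fold change of 0.26. CDK1, the mitotic kinase, had 225 and 247 CPM in D538G, 95.5 and 88.2 CPM in WT and 327 and 303 CPM in Y537S cells. KIF14, a kinesin, had 62.9 and 76.8, 25.2 and 25.6 and 103 and 99.4 CPM in the same order. Both were higher than in WT, by 1.35 and 1.45, and lower than in Y537S cells, by 0.44 and 0.56 on the log2 scale. PRKD3, a protein kinase D, and PIK3CB, a catalytic subunit of PI3 kinase, rose by 0.54 and 0.33, PLAGL2, a zinc finger factor, fell by 0.25 with a call lost without A5, D1 or D4, and PIK3CA, PRKD2 and TUSC2 were not called (0.06, 0.20 and -0.08). Of the 4 host genes CALCR, the calcitonin receptor, rose from 0.217 and 0.328 CPM to 4.26 and 3.19 CPM, SMC4 rose as given above, WWP2, a ubiquitin ligase, fell by 0.55, and B9D1 was not called (0.17). The median of these 4 was 0.80.

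MicroRNAs repress transcripts by pairing of their seed, bases 2 to 8, with the 3′UTR. The seeds of the 4 microRNAs that the study transfected or inhibited are shown in capitals in the mature sequences from RefSeq, since they define the gene sets that follow:
hsa-miR-301b-3p: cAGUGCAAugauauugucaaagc
hsa-miR-181c-5p: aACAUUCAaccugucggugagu
hsa-miR-331-3p: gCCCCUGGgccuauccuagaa
hsa-let-7f-5p: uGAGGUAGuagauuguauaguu
Their seeds are all different. Without any of these mimics, the medians of genes with a 7-base match lay close to those of other genes, and the share of genes that fell was larger for miR-301b-3p, miR-181c-5p and let-7f-5p and nearly equal for miR-331-3p, with the length of the 3′UTR not accounted for. Among 13120 tested genes with an annotated 3′UTR, the 2124 with a match to miR-301b-3p had a median log2 fold change of -0.01 against 0.02 for the rest, and 22.9% of them fell against 18.2% of the rest. For miR-181c-5p the 2805 genes had a median of -0.04 against 0.03, and 23.3% fell against 17.8%. The 1429 genes with a match to let-7f-5p had -0.05 against 0.02 with 22.8% against 18.5% lower. For miR-331-3p the 2028 genes had 0.02 and the rest 0.02, with 25% against 22.1% higher and 19.1% against 19% lower. Mature microRNAs were not measured in these libraries.

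The largest changes were in genes that are nearly silent in 1 genotype. GFRA1, the receptor of the neurotrophic factor GDNF, at chr10:117816436-118036315 of hg19, had 180.4 and 217 CPM in clones A5 and C2 and 0.0813 and 0.0597 CPM in D1 and D4, or 13840 against 5 counts. In Y537S cells 1 clone was at the D538G level and the other was not, with 225 and 0.377 CPM. TMTC1, an O-mannosyltransferase of the endoplasmic reticulum, had 46.8 and 45.4 CPM against 0.0542 and 0.239 CPM, and PXDNL, a peroxidasin relative, 40.2 and 65 CPM against 0.434 and 0.597 CPM. These genes were on in both D538G clones and at most at 0.597 CPM in the WT clones. NDN, the imprinted growth suppressor necdin on chromosome 15, had 47.6 and 41 CPM against 0.867 and 0 CPM. AMOTL1, an angiomotin of the Hippo pathway, rose by 5.01, CACNA1H, a T-type calcium channel, by 4.10, LRRN3, a leucine-rich repeat protein, by 3.49 and ALDH1A3, which makes retinoic acid, by 3.08, and none of these 4 differed from Y537S cells in the direct test.

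Other large rises set D538G apart from both WT and Y537S cells. P3H2, a collagen prolyl hydroxylase, had 44.3 and 41.8 CPM in D538G, 0.434 and 0.478 CPM in WT and 0.594 and 0.0942 CPM in Y537S cells (log2 fold change 6.54 ± 0.17 against WT, adjusted p = 1.5e-07, and 6.97 against Y537S, adjusted p = 0.0019). SEMA3A, a secreted guidance cue, had 34.5 and 32.9 CPM in D538G, 0.732 and 0.567 CPM in WT and 4.85 and 2.33 CPM in Y537S cells. FGFBP2, a secreted protein named for its likeness to an FGF-binding protein, had 21.9 and 10.7 CPM, 0.0542 and 0.119 CPM and 1.81 and 0.918 CPM in the same order. In all 3 genes both D538G libraries lay above the other 4. ANO1, a calcium-activated chloride channel, rose by 3.06, SULF2, a heparan sulfatase, by 3.05, CNTNAP2, a contactin-associated protein, by 3.45 and ST8SIA1, which makes the ganglioside GD3, by 2.85, each also above Y537S cells, by 1.32, 2.0, 1.27 and 1.77 on the log2 scale.

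Among the falls, ZNF655, a zinc finger gene on chromosome 7, was nearly silent in D538G cells alone, with 0.412 and 0.269 CPM against 27.6 and 33.4 CPM in WT and 35 and 36.5 CPM in Y537S cells (log2 fold change -6.47 ± 0.23, adjusted p = 8.8e-07). AHNAK2, a large scaffold protein on chromosome 14, fell to 7.91 and 12.2 CPM from 170.0 and 139 CPM and had 94.4 and 189 CPM in Y537S cells. ARSJ, an arylsulfatase, fell to 2.61 and 3.79 CPM from 41.8 and 45.5 CPM, against 42.3 and 22 CPM in Y537S cells. For these genes the WT and Y537S libraries were together and the D538G libraries far below. C14orf132, ZNF676 and KIAA1683 fell by 3.46, 3.28 and 3.50 and were also below Y537S cells. DTX4, a ubiquitin ligase of the Notch pathway, fell from 22.7 and 26.9 CPM to 1.7 and 1.4 CPM, and TRPM8, the cold-sensing channel, from 13 and 16.8 CPM to 1.37 and 1.73 CPM, where Y537S cells had 2.32 and 4.03 CPM and 1.6 and 2.28 CPM. MMP16, a membrane metalloproteinase, ZNF812, a zinc finger gene, SPINK5, a protease inhibitor, and CD36, a fatty acid receptor, fell as well, with log2 fold changes of -3.56, -3.35, -3.05 and -2.85.

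C6orf48 passed the rule for the largest falls but rests on 1 library, since WT clones D1 and D4 had 3.04 and 31.8 CPM and the D538G clones 2.5 and 1.88 CPM (log2 fold change -2.99 ± 0.83, adjusted p = 0.019). Its log2 fold changes with the miR-301b-3p and miR-181c-5p mimics were -1.45 and -0.46.

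**Figure D4:**
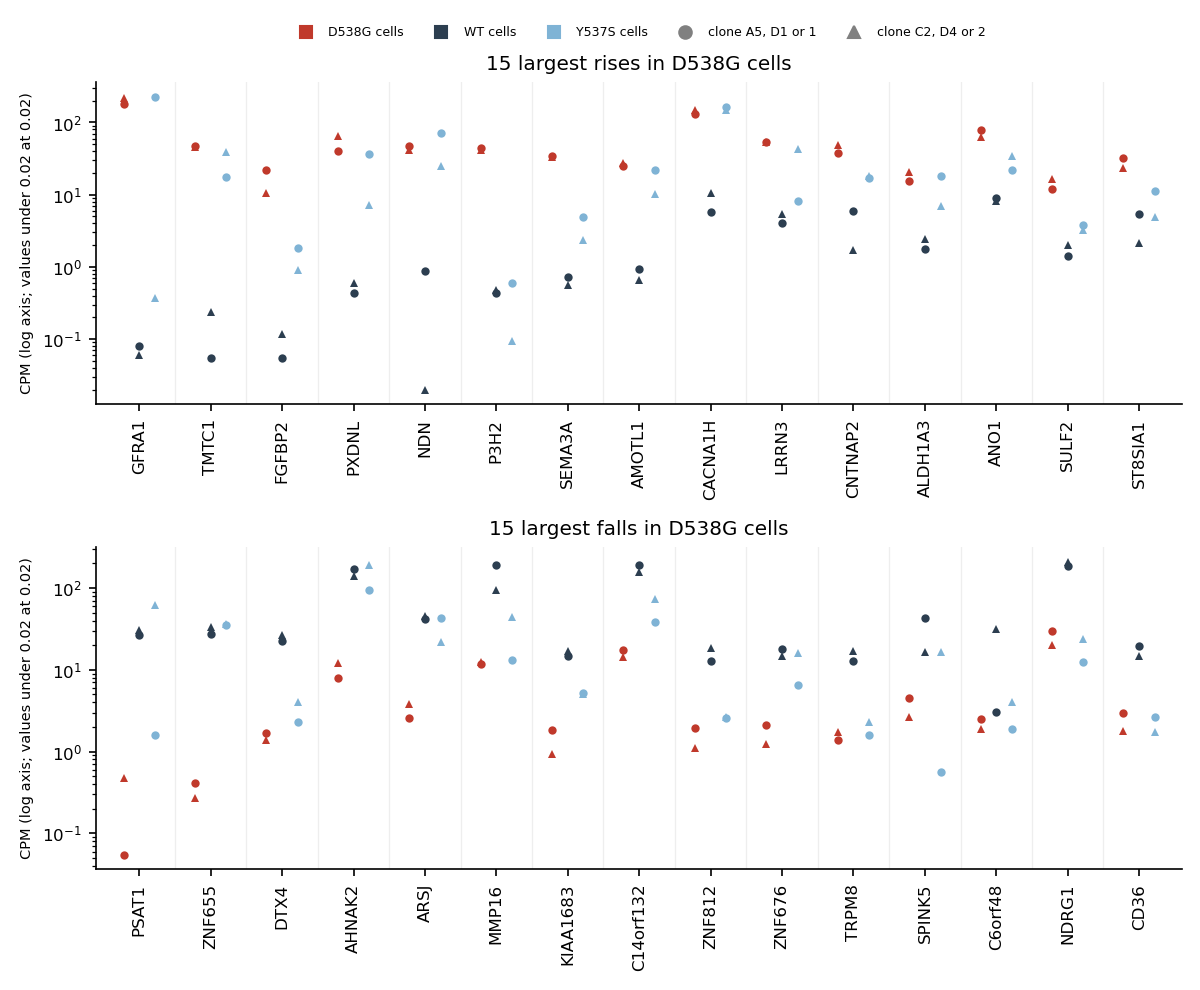
Level (CPM, log axis, values under 0.02 drawn at 0.02) of the 15 genes with the largest rise and the 15 with the largest fall among called genes of at least 3 log2 CPM on average, in D538G, WT and Y537S libraries. Each point is 1 library; GFRA1 has 13840 counts in D538G and 5 in WT libraries, and ZNF655 and P3H2 stand apart in D538G cells from both other genotypes.

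A further group was under 0.1 CPM in both libraries of 1 genotype and over 2 CPM in both of the other. Besides GFRA1, the genes on in D538G cells were COX7B2, a testis form of a cytochrome oxidase subunit, with 324 counts against 1 (ratio 326, 95% counting interval 58.1 to 12921), ELOVL2, a fatty acid elongase, with 192 against 2 (ratio 96.6, 26.4 to 804), and PKIA, an inhibitor of protein kinase A, with 279 against 0. PKIA was at least 93.6-fold higher in D538G cells, taking 3 counts over the 2 WT libraries as the limit that a count of 0 allows. The genes off in D538G cells were CLEC3A, a C-type lectin, with 0 counts against 708, at least 234-fold lower by the same limit, and SPINK13, a protease inhibitor, with 2 against 484 (WT over D538G 240, 66.2 to 1991). Each was called with edgeR (adjusted p between 2.1e-05 and 0.0004 for COX7B2, ELOVL2, PKIA, CLEC3A and SPINK13).

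Position in the genome went with the direction of change on 4 chromosomes (hg19). On chromosome 14 the median log2 fold change was -0.50, with 290 of 472 tested genes lower and 25 higher, and on chromosome 15 it was 0.54, with 277 of 481 higher and 16 lower. Chromosome 12 had a median of -0.32, with 338 of 765 lower and 70 higher, and chromosome 9 a median of 0.29, with 243 of 592 higher and 43 lower. On the other 19 chromosomes the medians lay between -0.10 and 0.17. Chromosomes 14 and 15 moved along their whole length, with medians between -0.35 and -0.83 and between 0.48 and 0.58 over stretches of 20 Mb that held 10 or more tested genes. Chromosome 9 was near 0 before base 40000000 (-0.02 and 0.02) and between 0.31 and 0.54 beyond base 60000000, and chromosome 12 was near 0 before base 40000000 (-0.03 and -0.04) and between -0.32 and -0.54 beyond it.

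These shifts were stable across libraries of the same clones. With the miR-301b-3p mimic the medians of chromosomes 14, 15, 12 and 9 were -0.51, 0.51, -0.33 and 0.32, and with the miR-181c-5p mimic -0.46, 0.50, -0.35 and 0.27. The Y537S clones against WT had -0.01, 0.46, -0.08 and 0.24 in the same order, so chromosomes 15 and 9 were shifted in both mutants against the shared WT clones, while chromosomes 14 and 12 were lower in D538G cells than in Y537S cells in the direct comparison as well (medians -0.49 and -0.29). The 4 chromosomes held 2310 tested genes, of which 1302 (56.4%) were called, 22.4% of all called genes, against 36.3% of the genes on the others. DNA copy number was not analysed here, and its part in these values was not tested.

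**Figure D5:**
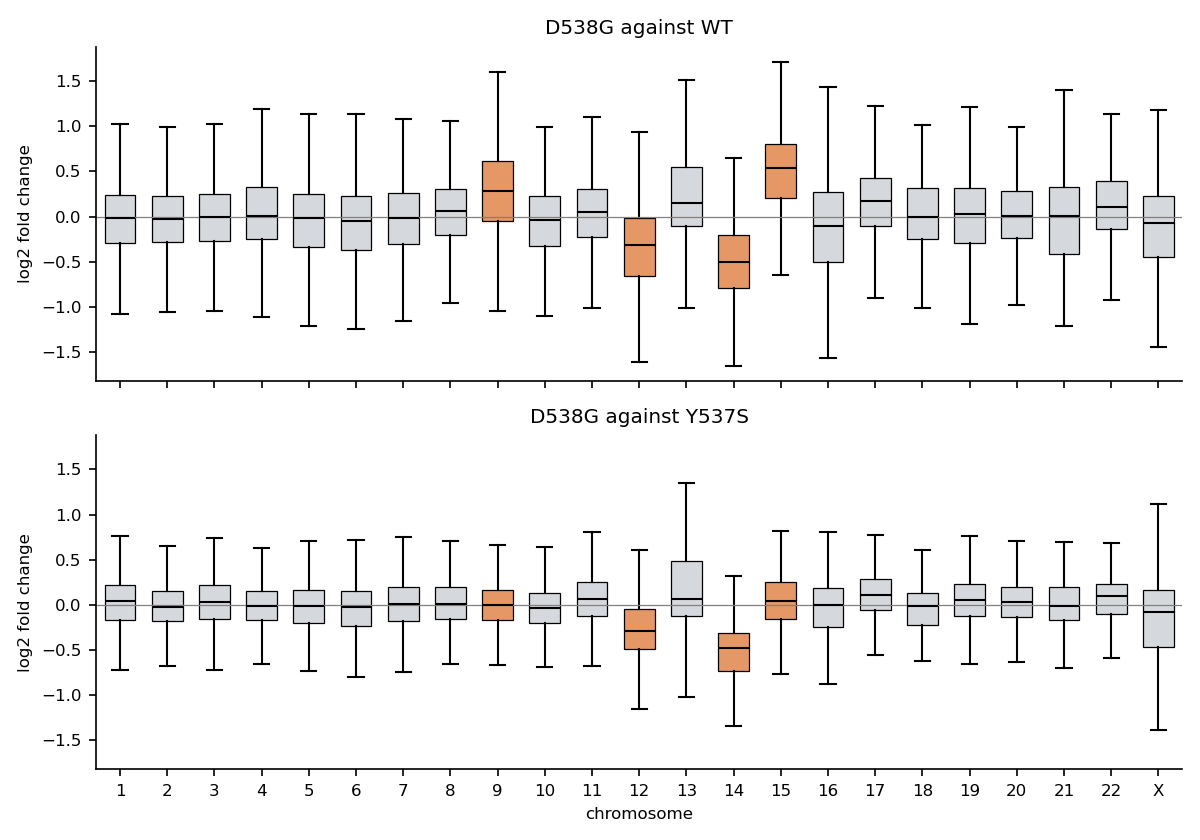
Log2 fold change of the tested genes of each chromosome for D538G against WT (top) and D538G against Y537S (bottom). Boxes span the quartiles with the median, whiskers reach 1.5 times that span and points beyond are left out; orange marks chromosomes 9, 12, 14 and 15, with medians of 0.29, -0.32, -0.50 and 0.54 against WT.

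Cell cycle genes were also higher away from these chromosomes. Away from them 34 of 34 S phase genes were higher, with a median of 1.06, and 41 of 42 genes of G2 and mitosis were higher and 1 lower. The estrogen-induced list had 25 of 52 higher and 6 lower away from them and the estrogen-repressed list 6 of 7 lower. The nuclear receptors had 5 of 23 higher and 4 lower away from them, against 7 higher and 8 lower of all 34 tested. The TGF-beta and BMP list had 1 of 22 higher and 3 lower, against 2 higher and 6 lower of 28. The keratins had 1 of 5 higher and 2 lower, against 2 higher and 5 lower of 12, and most keratins tested lie on the 4 chromosomes.

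The direct test of D538G against Y537S cells called 925 of 14935 genes (6.19%), 338 (2.26%) higher and 587 (3.93%) lower in D538G than in Y537S cells. Leaving out 1 clone moved this count, to 215 without D538G clone A5, 356 without C2, 1780 without Y537S clone 1 and 1629 without Y537S clone 2. Of the 5818 genes that differed from WT, 636 (10.9%) also differed from Y537S. In a principal component analysis of the 24 libraries, the first component (34.7% of the variance) set WT libraries, at 53.1 to 60.8, apart from D538G, at -23.9 to -3.83, and Y537S, at -86.5 to -9.57. The second (15.4%) set D538G libraries, at 36.1 to 49.2, apart from WT, at -16.2 to -4.06, and Y537S, at -60.9 to 3.63.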

How the data were processed

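The authors made poly-A RNA-seq libraries with a stranded kit, aligned reads to hg19 with HISAT2, assigned them to UCSC Known Genes with featureCounts of Subread and analysed counts with DESeq2. Versions of the aligner and the counter and the strand setting of the counting are not given in the sources used here. The deposited tables hold raw read counts per gene symbol, joined on the symbol, and the column headings name clones while the labels number them, so libraries were grouped by genotype and treatment. Each genotype has a table of its own, so any difference in handling between tables cannot be told apart from the genotype. The genotype field of the Y537S samples reads Y573S, and Y537S, as in their titles, is used here.

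Counts were tested with edgeR 4.0.16 in R 4.3.3: TMM scaling, filterByExpr at its defaults, the quasi-likelihood F test (glmQLFit, glmQLFTest), two-sided, with Benjamini-Hochberg adjustment over all genes tested and calls at an adjusted p under 0.05. The SE was taken as the log2 fold change over the root of its F statistic. The main fit held the 4 libraries of D538G and WT cells with the control mimic. CPM are scaled by TMM over 24 libraries. The script was tested on simulated data with 200 changed genes. The clones are separate lines but few, so p-values measure the spread between 2 clones per genotype. Counting intervals and limits cover counting error only (exact, 95%). Low genes carry wider errors at these depths.

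Genes were named by a rule: ESR1 and genes the study names, the 15 largest rises and falls, up to 6 called members per list by p, genes on in 1 genotype and off in the other, and abundant nuclear and growth factor receptors. Some genes that this rule takes are not reported here. Other members named (such as GREB1, MYC, CCND1, CXCL12, STC2, TFF1, SERPINA1, CDK6, CDKN1A, CLDN1, BCL2, GATA3 and AXIN2) were chosen after their values were seen. The members of the comparison and the 28 gene lists were chosen with earlier results of these data known, and lists are described by counts and medians with no test. Positions and 3′UTRs came from GENCODE 44 on GRCh37, promoters and microRNAs from RefSeq (GRCh38.p14). Alternatives were DESeq2 1.42.0, RLE scaling, no filter, a GC correction, all 24 libraries in 1 fit, leaving out each clone and, added after seeing the data, leaving out the genes on chromosomes 9, 12, 14 and 15.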

Additional observations from a re-analysis of the deposited data

Results flagged for a closer look

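The results below were singled out because a named gene differed between D538G and WT cells and D538G cells also differed from Y537S cells in the direct test (edgeR, adjusted p under 0.05), so that the mutant genotypes stood at different levels. Values are log2 fold changes of D538G minus Y537S, and the 2 comparisons with WT share its libraries.

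D538G was the higher genotype for P3H2 (6.97), RORB (4.56), COL3A1 (3.81), COX7B2 (3.66), FGFBP2 (3.57), SEMA3A (3.22), GJA1 (2.32), TWIST1 (2.20), SULF2 (2.0), ST8SIA1 (1.77), CALCR (1.71), RAB31 (1.68), ANO1 (1.32), CNTNAP2 (1.27) and KRT23 (1.25), all of which also stood above WT. ERBB2 (0.55), COL4A5 (0.73) and CITED2 (0.45) were above Y537S and below WT, and PMVK (0.49) was above both.

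D538G was the lower genotype for ZNF655 (-6.71), AHNAK2 (-3.85), ARSJ (-3.35), ZNF676 (-2.76), OAS2 (-2.24), KIAA1683 (-1.90), C14orf132 (-1.86), FADS1 (-1.27), EGF (-1.05), BCL2L2 (-0.82), IL1R1 (-0.68), PGR (-0.68), KRT80 (-0.65), ERBB4 (-0.56), EHF (-0.55), TXNIP (-0.51), LCOR (-0.48), CTCF (-0.42) and KMT2D (-0.42), all of which were also below WT. OLFM1 (-1.36), OAS3 (-0.89), FGFR3 (-0.64), KIF14 (-0.56) and CDK1 (-0.44) rose against WT and stayed below Y537S. AHNAK2, C14orf132 and BCL2L2 lie on chromosome 14 and OAS2, OAS3, KRT80 and KMT2D on chromosome 12, where the median of D538G minus Y537S was -0.49 and -0.29.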

How the results depend on the processing

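The 5818 genes called between D538G and WT became 5817 (3031 higher and 2786 lower) with RLE scaling, 5399 with DESeq2, 6464 of 19831 without the filter, 5242 with all 24 libraries in 1 fit, 6114 with the GC correction and 4452 of 12632 without chromosomes 9, 12, 14 and 15. Leaving out a clone gave between 4030 (WT clone D1) and 5690 (D538G clone A5). The comparison with Y537S moved most: 925 calls became 930 with RLE scaling, 1588 with DESeq2, 1991 without the filter, 2033 with all 24 libraries in 1 fit, and between 215 (without D538G clone A5) and 1780 (without Y537S clone 1) when a clone was left out, with 356 without C2 and 1629 without Y537S clone 2. Where a genotype was left with 1 clone, that clone was assumed to vary like the other genotype. Calls with miR-301b-3p and miR-181c-5p mimics lay between 3431 and 4826 and between 3736 and 4631 with a clone left out. Over 200 named genes and 1956 values, 1870 kept direction and side of the threshold, 67 lost the call, 8 gained it and 11 reversed, all 11 in genes not called. With a clone left out these genes ranged from -0.14 to 0.25 for FGFR2, -0.11 to 0.047 for IGFBP2, -0.14 to 0.038 for NR1H2, -0.086 to 0.018 for NR2F6, -0.23 to 0.0059 for NR3C1, -0.16 to 0.21 for NR6A1, -0.11 to 0.011 for PPARD and -0.0023 to 0.057 for RXRA, which was -0.037 with the GC correction. GFRA1 and PKIA lost the call with all 24 libraries in 1 fit (adjusted p = 0.051 and 0.098), as did PGR (0.094), TWIST1 (0.10), CD44 (0.21), BAD, BMP7, DLL1, FGFR4, HIST1H2BK, HSPA8, IGFBP4, IRS1, KRT8, KRT19, NR4A1, SPINK5 and TGFBR1, and C6orf48 and TGFBR1 lost it with DESeq2 (0.075 and 0.17), IGFBP4, KRT8 and RARA with the GC correction (0.088, 0.088 and 0.071) and KRT19 with RLE scaling (0.051). NR2C2 and NR2F6 gained the call with the GC correction (0.043 and 0.036), PPARA and THRB without the filter (0.049 and 0.040), PPARA and THRA without C2, and NR2F1 and THRB without A5. Calls were lost without A5 for KRT15, KRT19, NR4A1 and PLAGL2, without C2 for BAK1, BIK, BMF, IGFBP4, KRT8, KRT19, NR1D2, NR4A1, RARA, TGFBR1 and WNT11, without D1 for BAD, BAK1, BIK, BMF, BMPR2, FGFR4, GRB7, IGFBP4, KRT8, NR4A1, PLAGL2, RARA, TGFBR1 and WNT11, and without D4 for BAK1, BIK, BMP7, C6orf48, FOXA1, GRB7, KRT8, KRT15, KRT19, NR1D2, NR4A1, PIK3CB, PLAGL2 and TWIST1. Of 560 counts of list members 61 moved by over 1.5 times. The cause was not tested in any case. No paired analysis was possible because the columns name clones and carry no replicate numbers, and clones of different genotypes are different lines. Genes under about 0.1 CPM are limited by depth.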

Other observations

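Some gene families outside the lists above had calls mostly in 1 direction, and others had few calls. The clustered protocadherins, cell surface cadherins encoded in 3 neighbouring clusters on chromosome 5, were lower in D538G cells: 9 of 12 tested genes of the alpha cluster fell and 0 rose (median log2 fold change -1.32), 8 of 18 of the beta cluster fell and 0 rose (-0.43), and 11 of 23 of the gamma cluster fell and 2 rose (-0.61). The alpha, beta and gamma clusters had 75%, 44.4% and 56.5% of their tested genes called, beside 38.9% of all genes tested. Exons of the alpha and gamma genes overlap, so their counts are not fully separate. With the miR-301b-3p mimic 10, 6 and 9 fell and with the miR-181c-5p mimic 5, 7 and 10. The D538G clones themselves differed in 4, 12 and 5 genes of the 3 clusters, with a median log2 difference of A5 minus C2 of 0.56, 0.39 and 0.32.

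Zinc finger genes named ZNF, most of them repressors, were more often lower than higher. On chromosome 19, where many lie in clusters, 79 of 252 fell and 8 rose (median -0.26), and on other chromosomes 68 of 255 fell and 26 rose (-0.14), beside 18.5% of all genes lower and 20.4% higher. Of 77 cytosolic ribosomal protein genes 18 rose and 3 fell (median 0.09), 27.3% called beside 38.9% of all genes tested. Of 19 HOX genes 4 fell and 0 rose, 21.1% called, and away from chromosomes 9, 12, 14 and 15 0 of 10 were called. Metallothioneins had 1 of 3 higher and HLA class I genes 1 of 5 higher and 1 lower. These families were chosen after their values were seen and are descriptions with no test.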
